A study of Mus musculus with 12 samples.

Results

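The mRNAs described here encode the proteins of the small (40S) subunit of the cytosolic ribosome in mouse brain. The 28 members were taken by name, as the genes Rpsa, Fau and the Rps genes on a fixed list, out of 55073 genes with a symbol in the deposited files. No measured value entered the choice, although earlier results of these data were known when it was made. All 28 passed the detection limit used for every gene, an expected count of at least 10 and a TPM above 0 in each of 6 libraries, which 14988 genes passed in all.

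The study asked how the loss of Larp1 changes TOP mRNAs, the mRNAs with a terminal oligopyrimidine tract, in the brain. It compared Nestin-Cre male mice (Larp1 WT) with Nestin-Cre;Larp1-flox/flox mice (Larp1 cKO, called KO in the labels), all of them males by the methods, so that the Cre transgene is carried by both groups. Recombination under the Nestin promoter begins in neural precursors of the embryo, so cells of other origin, such as microglia and blood vessel cells, are not its targets. All mice were C57BL/6J, and the age of these mice was not stated in the labels or the methods. The labels list 12 samples, 6 WT and 6 KO, as 3 replicates per genotype in 2 parts each, and all of them are cortex. The files hold 1 library for each of mice 678, 687, 688, 698, 700 and 703. The labels, file headers and methods do not link these mouse numbers to genotypes. None is therefore assigned, no test between genotypes was run, and values are those of each library, or the median and the extremes over all 6. The tissue is inferred from the labels. Slc17a7, the vesicular glutamate transporter of cortical excitatory neurons, had a TPM of 346.5 to 491.9 in these libraries, while Gabra6 and Pcp2, which mark cerebellar granule and Purkinje cells, stayed at or below 0.02 and 0.09. The other 2 genes of the cerebellum list were present in every library, Calb1 at 21.78 to 33.11 TPM and Zic1 at 1.64 to 2.70 TPM.

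The 40S subunit binds the mRNA, scans for the start codon and holds the decoding centre, where codon and anticodon are matched. Its proteins are assembled in equal numbers with ribosomal RNA in the nucleolus, and cells coordinate their synthesis largely through their mRNAs. Vertebrate ribosomal protein mRNAs are the classical TOP mRNAs, which start with a C at the cap followed by a run of pyrimidines. The mTORC1 pathway and the cap-binding protein Larp1 act on translation and stability through that tract.

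The annotated starts of these mRNAs are shown first because the TOP tract is defined by them. In the sequences of this paragraph and the next, capitals mark a C followed by at least 4 pyrimidines, counted from the first base of the transcript. GENCODE M21 transcripts of 4 members had such a start in the isoform with the highest median TPM, called the leading isoform from here on. They are these, each with the first 25 bases of the transcript.
Rps24-202: CTCTTTTCCTCCTCTCCagctccgg
Rps21-201: CCCTCCTgcccaatagtgctgcgga
Rps10-201: CTTTCCagcctccgcctcggaccct
Rps15a-201: CTCCCgaaagggggtgtgtgtgtgt
The first is at chr14:24490718-24490742 on the plus strand of GRCm38, and its C is followed by 16 pyrimidines. The Rps21 start is at chr2:180257377-180257401 on the plus strand. The Rps10 start is at chr17:27635216-27635240 and the Rps15a start at chr7:118115653-118115677, both on the minus strand.

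The leading isoforms of the members that the study follows by name, Rps6, Rps20 and Rps25, and of Rps29, the member with the highest level, are annotated with other starts. For Rps25 a less abundant isoform is shown too, because it begins 2 bases further upstream and there reads a TOP tract.
Rps6-201: gagaacttagagcgctatgtgccct
Rps20-201: ccatggtgaggtggggggcgtcgcc
Rps25-205: tttttttccgacatcttagcgaggc
Rps25-204: CCTTTTTTTCCgacatcttagcgag
Rps29-201: gttgtcgcacggcgtacgcgtcacg
The isoform Rps25-205 starts at chr9:44407697 and Rps25-204 at chr9:44407695, and the first held 74.4% to 76.7% of the TPM of Rps25. The 7 T bases at the head of the leading isoform are thus the same tract without its first C bases. Rps6-201 starts on the minus strand at chr4:86857412, Rps20-201 on the same strand at chr4:3835488, and Rps29-201 on the minus strand at chr12:69159186. Rps20-201 is annotated as a retained-intron transcript. The coding Rps20-203 starts further upstream, at chr4:3835665, and its annotated start has no TOP tract either. The paper treats Rps6, Rps20 and Rps25 as canonical TOP mRNAs, so these annotated starts do not show that their mRNAs lack the tract.

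The RefSeq promoter table (GRCm38.p6) held 24 of the 28 members, all but Rps14, Rps20, Rps27a and Rps29. Its starts equal those of the leading GENCODE isoforms for Rps2 and Rps28 and differ by up to 470 bases for the others. The difference of 470 bases is that of Rps15a, whose leading isoform starts downstream. Each of these Rps15a starts reads a TOP tract of its own. The 30 bases around the RefSeq start are shown for 3 members for which the annotations disagree or differ by a few bases, chosen after the sequences were seen. Each run has 15 bases before the start and 15 from it, and the capitals begin at the start.
Rps6: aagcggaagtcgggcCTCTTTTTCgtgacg
Fau: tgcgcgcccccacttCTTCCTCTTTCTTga
Rps10: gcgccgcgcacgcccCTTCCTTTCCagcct
The Rps6 run is at chr4:86857353-86857382 on the minus strand, and the leading GENCODE isoform begins 45 bases further upstream. The Fau run is at chr19:6057932-6057961 on the plus strand, with the leading isoform 103 bases upstream. For Rps10, at chr17:27635230-27635259 on the minus strand, the GENCODE start lies 4 bases downstream, inside the same tract.

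TOP starts were more frequent among the members than among genes at large, and how frequent depended on which start was read. The leading isoform had one in 4 of 28 members (14.3%), against 320 of 13626 protein-coding genes with at least 10 counts in each library (2.35%). At least 1 annotated isoform had one in 14 members (50%), against 10.7% of those genes. The members have a median of 7 annotated isoforms, and the number for those genes is not given here. This share can rise with the number of isoforms, so the 50% and 10.7% are not compared at equal isoform number. With a tract allowed to begin within 5 bases of the start the count was 9 (32.1%, against 10.8%), and with at least 6 pyrimidines it was 2 (7.14%, against 1.18%). At RefSeq starts 7 of 24 members had one (29.2%), namely Fau, Rps6, Rps10, Rps15a, Rps18, Rps21 and Rps27, against 3.01% of the 27025 genes in that table. These counts describe annotation, since no file used here maps the 5′ ends present in this tissue. The leading isoforms of Rpsa, Rps16, Rps20, Rps23 and Rps26 are not annotated as coding. The isoforms with a TOP start held a median of 98.6% of the TPM of Rps21, 83.4% of Rps24, 52.9% of Rps10, 48.7% of Rps15a and 21.8% of Rps25.

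In the same RefSeq windows, 250 bases before to 50 after the start, the letters CCGGAAG, bound by ETS factors, occurred on either strand in 10 of 24 members (41.7%), against 9.93% of genes. Genes here are all 27025 of the RefSeq table, without a filter on detection in these libraries or on gene type. These were Rpsa, Rps2, Rps3a1, Rps6, Rps7, Rps10, Rps18, Rps21, Rps25 and Rps26. TATAAA, the core of the TATA box, occurred in 2 members, Rps2 and Rps28 (8.33%, against 15.7%). GATGGCGG, which holds the core of YY1 sites, occurred in 0 members, against 1.97% of genes. CTTTC or CTTTT on the sense strand within 25 bases of the start, which overlaps the TOP tract, was found in 8 members (33.3%, against 13.2%). The motif windows of a gene with several RefSeq starts were counted together, and 24 members have 28 windows.

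The 40S mRNAs together made up 0.562% of all TPM in mouse 678, 0.516% in 687, 0.220% in 688, 0.234% in 698, 0.494% in 700 and 0.259% in 703. TPM is a share of RNA molecules corrected for transcript length, with a fixed sum over all transcripts of a library. The highest library stood 2.56-fold over the lowest. Levels in 678, 687 and 700 lay close together and well above those in the other libraries. The denominator matters for the order within these, because misc_RNA genes, which include the abundant 7SL RNA, held 36.5% (mouse 703) to 47.9% (mouse 700) of TPM. As a share of the TPM of nuclear protein-coding genes, the 40S mRNAs held 2.15%, 2.10%, 0.898%, 0.914%, 2.18% and 0.896% in the same order of mice, a 2.43-fold range with mouse 700 highest and mouse 703 lowest. In bulk tissue, fewer cells with high expression and less RNA per cell cannot be told apart.

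**Figure D1:**
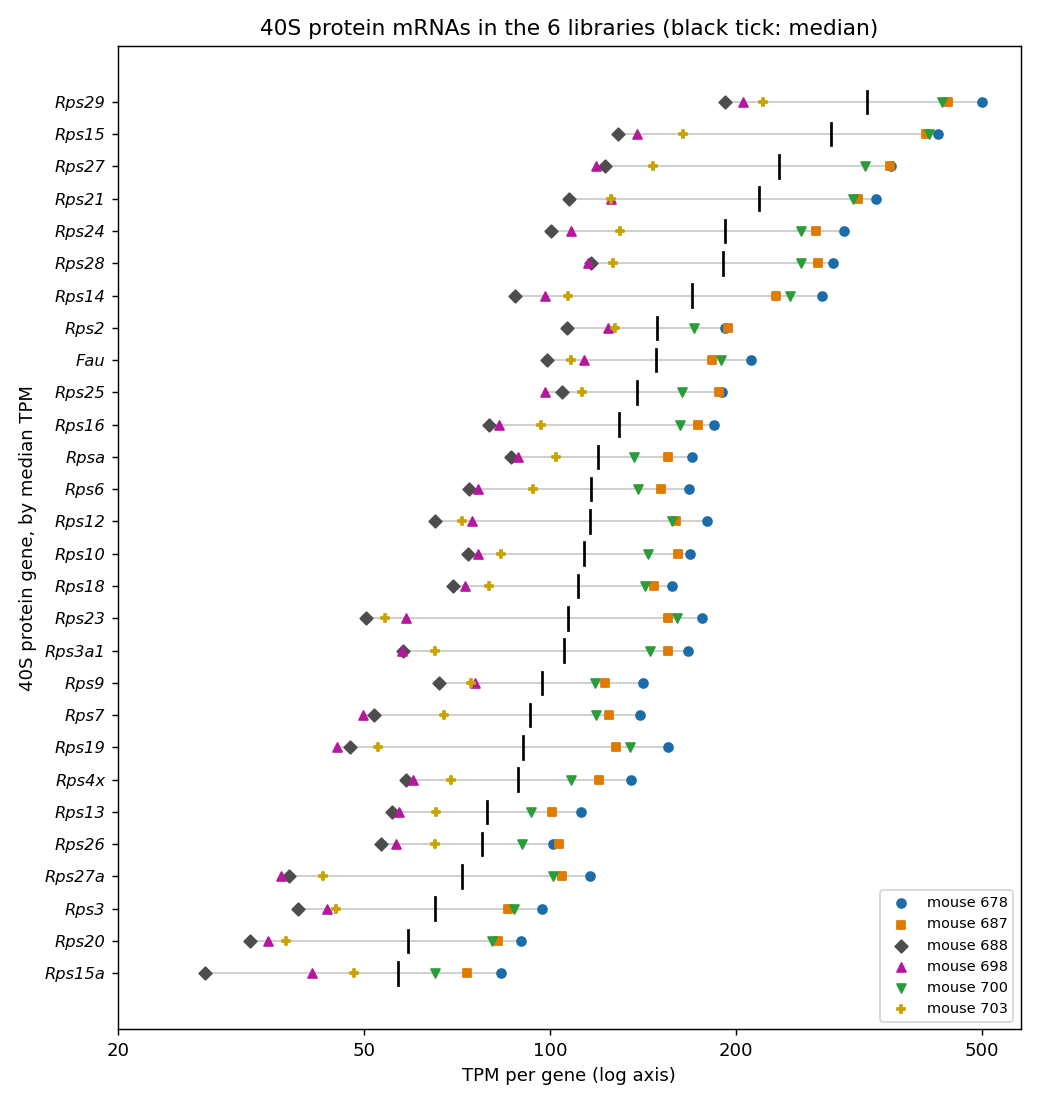
TPM (log axis) of each of the 28 genes, ordered by median, with 1 symbol for each mouse and a black tick at the median. Rps29 is highest, with a median of 325.3, and Rps15a lowest, at 56.62, and in every row mice 678, 687 and 700 lie to the right of the tick.

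Median TPM differed 5.75-fold between the most and the least abundant member. Rps29, a zinc-binding protein of the head of the subunit, had 498.8 TPM in mouse 678, 440.3 in 687, 191.9 in 688, 204.8 in 698, 429.6 in 700 and 221.0 in 703, with a median of 325.3. It ranked first of the 28 in all 6 libraries. Rps15, a head protein whose tail reaches toward the decoding centre, ranked second in all 6, with 423.2, 404.7, 128.7, 138.2, 410.7 and 163.7 TPM in the same order of mice, which is used for all values in each library from here on. Its median was 284.2 TPM. Rps27, another zinc-binding member, had 356.0, 355.0, 122.7, 118.6, 322.8 and 146.6 TPM (median 234.7). It held the third rank in 5 libraries and the fifth in mouse 698. The 5 members of highest median TPM held 33.5% of the summed medians.

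At the other end stood Rps15a, a protein of the subunit body, with 83.38, 73.45, 27.60, 41.11, 65.14 and 48.10 TPM (median 56.62). Rps20, a head protein whose mRNA the study follows, had 89.63, 82.39, 32.72, 34.91, 80.54 and 37.37 TPM (median 58.95). Rps3, at the mRNA entry channel, had 96.90, 85.29, 39.08, 43.58, 87.32 and 44.99 TPM (median 65.14). All 3 kept to the last 4 ranks in every library, but the order of Rps15a and Rps20 changed in mice 698 and 703. Ranks moved little for most members. The largest shift was that of Rps23, from rank 12 in mouse 700 to rank 23 in mice 688 and 703. Ranks by TPM also depend on the lengths of the isoforms to which reads were assigned. Rps3, whose leading isoform has 1908 bases, reached 5430 expected counts in its highest library. Rps29, first in TPM with a leading isoform of 390 bases, reached 4923.

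The range over libraries was at least 2-fold for 24 of the 28 members, while 15.2% of the 14988 detected genes reached that range. The median ratio of highest to lowest library was 2.55 for the members and 1.48 for detected genes. Rps13 was just above the limit at 2.02, and Rpsa was just below it at 1.97. Counting error was small beside these ranges. The lowest expected count of any member was 666, for which the Poisson error is 3.9%. The 28 genes lie on 14 chromosomes, with at most 6 on any of them.

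**Figure D2:**
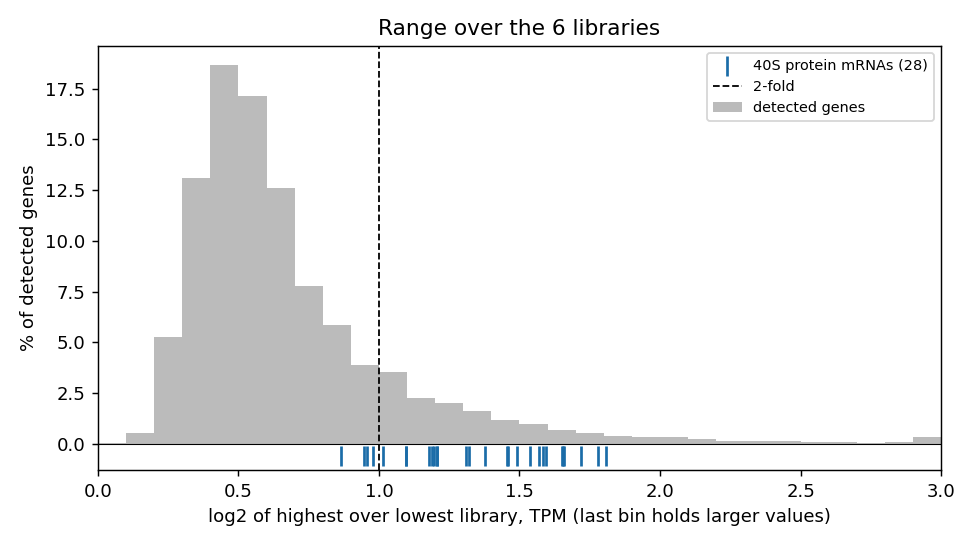
Grey bars give the percent of detected genes in each bin of log2(highest over lowest library), in TPM, and blue ticks under the axis the 28 members. The members run from 0.87 to 1.81 on this log2 scale, and 24 of them lie right of the dashed line at 2-fold.

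The order of the libraries was nearly the same for every member. Mouse 678 was highest for 26 members, against 15.0% of detected genes, and mouse 687 for the other 2, Rps2 and Rps26. Mouse 688 was lowest for 21 members, against 13.7% of detected genes, and mouse 698 for the other 7. Mouse 678 was above the median of the 6 libraries for all 28 members, where 54.8% of detected genes were. The same held for mouse 687 (28 members, 37.5% of detected genes) and mouse 700 (28 members, 14.8%). Mouse 688 was above the median for 0 members (47.7% of detected genes), as were mouse 698 (62.4%) and mouse 703 (80.1%). Under all 5 other units (coding-gene TPM, shares of counts, TMM, DESeq2 size factors and coding transcripts alone) these 28 and 0 were unchanged. Which library was the extreme did change, since over coding-gene TPM mouse 700 was highest for 12 members and 678 for 11, and mice 698 and 703 were each lowest for 11. In TPM, the members in mice 700 and 703 stood opposite to most detected genes, whose TPM was mostly low in 700 and high in 703. Shares of detected genes above the median were counted in TPM alone, so this contrast is not known for the other units. TPM depends on the denominator, in which misc_RNA genes held 47.9% in mouse 700 and 36.5% in mouse 703. Nuclear protein-coding genes held 22.7% and 28.9%.

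The summed marker mRNAs of each cell type or region varied less than the summed 40S mRNAs, apart from those of blood. The summed TPM of 5 markers of cortical excitatory neurons was 484.5, 469.5, 532.2, 512.5, 446.5 and 614.2 in the order 678, 687, 688, 698, 700 and 703. That of 4 microglia markers was 56.92, 56.16, 61.40, 71.21, 50.76 and 75.16. Both sums were lowest in the mice with the highest 40S levels, and their part in the result was not tested. Blood markers ranged 12.6-fold, with their lowest values in mice 688 (1.43) and 700 (2.78), which stand on opposite sides of the 40S range. Sums for astrocytes (1.24-fold), the cerebellum list (1.44-fold), oligodendrocytes (1.60-fold), striatum (2.15-fold) and hippocampal granule cells (2.11-fold) followed other orders.

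Proteins along the path of the mRNA through the subunit held both ends of this range. Rps23, whose loop sits in the decoding centre and which acts in decoding accuracy, had the largest ratio, 3.50, with 176.1, 154.9, 50.35, 58.44, 160.6 and 53.95 TPM (median 106.7). Rps2, at the mRNA entry channel, had the smallest, 1.82, with 191.6, 193.9, 106.5, 123.8, 170.6 and 127.4 TPM (median 149.0). Levels of both were high in the same mice, and the gap between the libraries was wider for Rps23. Rps9, also at the entry channel, had a median of 96.81 TPM (66.01 to 141.2) and Rps3 a ratio of 2.48. Fau, which encodes a ubiquitin-like protein fused to the 40S protein eS30, had 211.4, 183.0, 98.92, 113.3, 188.6 and 108.0 TPM (median 148.2), a ratio of 2.14.

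Head proteins ranged from a ratio of 1.93 to 3.43. Rps25, needed by several viral internal ribosome entry sites, had 189.9, 187.8, 104.3, 98.22, 163.6 and 112.5 TPM (median 138.0), the lowest ratio of this group. Rps19, the gene first linked to Diamond-Blackfan anaemia, had 155.0, 127.8, 47.50, 45.19, 134.5 and 52.63 TPM (median 90.19), the highest. Rps20, at 2.74, and Rps29, at 2.60, were near the middle. Rps27a, which encodes ubiquitin fused to the 40S protein eS31 of the beak, had 116.1, 104.3, 37.74, 36.74, 101.0 and 42.86 TPM (median 71.94), a ratio of 3.16. Its range was wider than that of the other fusion gene, Fau. The remaining head members were Rps10 (median 113.6 TPM, range 73.57 to 168.3), Rps12 (116.1, 65.10 to 179.1), Rps16 (129.2, 79.72 to 184.3), Rps18 (110.8, 69.73 to 157.5) and Rps28 (190.6, 114.9 to 286.7).

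Of the platform and the mRNA exit side, Rps26, which contacts the mRNA upstream of the start codon, had 101.1, 103.2, 53.27, 56.28, 89.96 and 65.10 TPM (median 77.53), a ratio of 1.94. Rps14, next to it on the platform, ranged more widely, 3.14-fold around a median of 169.3 TPM (87.68 to 275.5). Rpsa, known also as the laminin receptor, had a median of 119.3 TPM (86.28 to 169.6), and Rps21, which binds it on the ribosome, one of 217.3 (107.1 to 337.0) with a ratio of 3.15. Rps3a1 had a median of 105.1 TPM (57.61 to 167.1).

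Among proteins of the body, Rps6, the substrate of the S6 kinases downstream of mTORC1, had 167.8, 151.3, 73.78, 76.32, 138.7 and 93.89 TPM (median 116.3), a ratio of 2.28. The other body members were Rps4x, encoded on the X chromosome (88.53, 58.47 to 134.9), Rps7 (92.91, 49.87 to 139.9), Rps13 (79.16, 55.50 to 112.0) and Rps24 (192.1, 100.4 to 298.3), given as median and range of TPM. Rps27 and Rps15a, described above, had ratios of 3.00 and 3.02. The members were therefore alike in which libraries were high, and differed in how far apart the libraries were.

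**Figure D3:**
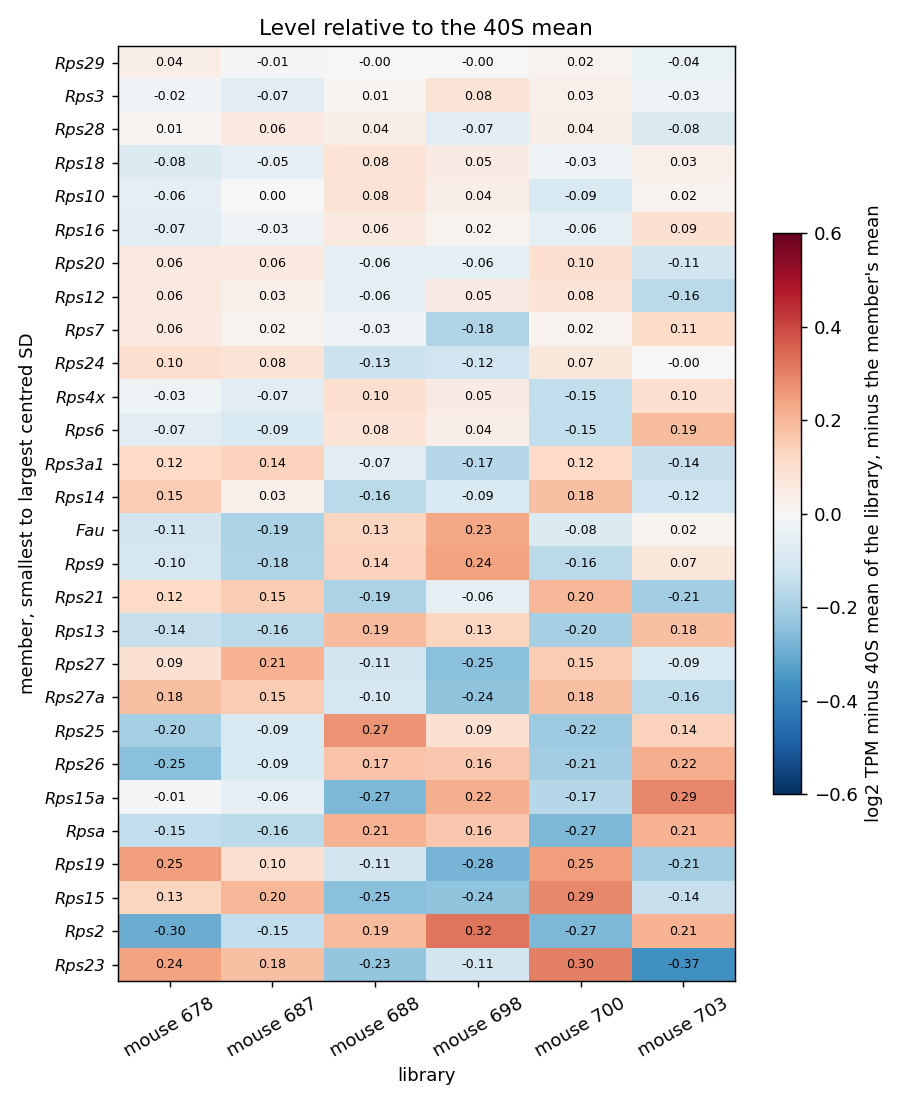
Each cell gives log2 TPM minus the mean log2 TPM of the 28 members in that library, then minus the member's own mean, for 6 mice (columns) and 28 members (rows, smallest to largest SD). Rps29 stays within 0.04 of 0, while Rps23 runs from -0.37 to 0.30 and Rps2 from -0.30 to 0.32.

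Most of the variation was common to the members. The SD of log2 TPM over the 6 libraries had a median of 0.62 over members, and it fell to 0.15 once the mean of the 28 members in each library was subtracted. Correlations are not given, because the libraries lie in separate clusters on this measure. Rps29 followed the mean most closely, with a centred SD of 0.027, followed by Rps3 at 0.052 and Rps28 at 0.058. In all, 9 members were under 0.1. Rps23 departed most (0.28), followed by Rps2 (0.27) and Rps15 (0.24). Relative to the 40S mean and to its own mean, Rps23 stood at 0.24, 0.18, -0.23, -0.11, 0.30 and -0.37 in log2 units, and Rps2 stood at -0.30, -0.15, 0.19, 0.32, -0.27 and 0.21. Their departures had opposite signs in every library. This largely restates their ratios, the largest and the smallest, since all members were high in the same mice. In each library the departures of the 28 members sum to 0 by construction. Rps15a was unlike both, with -0.01, -0.06, -0.27, 0.22, -0.17 and 0.29, so that mouse 688 and mice 698 and 703 departed in opposite directions.

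The size of the range showed little relation to the level, length or isoform number of the members. Over 28 genes that share all 6 libraries, the log2 range had a Spearman rho of 0.06 with median TPM (Pearson 0.21), of -0.23 with the length of the main coding isoform (Pearson -0.08) and of -0.10 with the number of isoforms (Pearson -0.09). The 4 members whose leading isoform has a TOP start had ratios of 2.29 to 3.15 with a median of 3.00, the 10 with such a start in another isoform alone 1.82 to 3.43 with a median of 2.20, and the 14 without any 1.94 to 3.50 with a median of 2.67. By RefSeq starts, the 7 members with a TOP start had a median of 2.29 and the 17 without one a median of 2.48. The ranges overlap in each case, and the order of the medians differs between the annotations. These groups do not separate TOP mRNAs from others. The 14 include Rps6, with a TOP start in RefSeq, and Rps20, which the paper treats as a canonical TOP mRNA. The 10 include Fau and Rps27, where isoforms with such a start held a median of 0% of TPM. No conclusion on TOP tracts and range is therefore drawn.

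**Figure D4:**
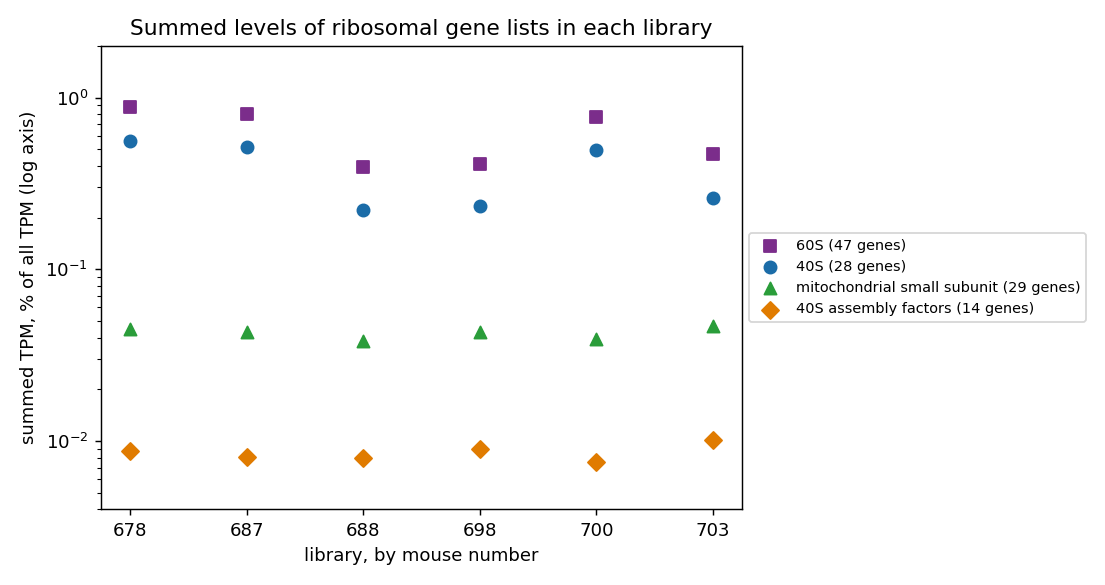
Summed TPM as percent of all TPM (log axis) in each library for 4 gene lists, 1 symbol each. The 40S and 60S lists are both lower in mice 688, 698 and 703, whereas mitochondrial small-subunit proteins (0.0382% to 0.0467%) and 40S assembly factors (0.00757% to 0.0101%) stay nearly level.

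The large-subunit mRNAs followed the same order of libraries. The 47 mRNAs of the 60S list summed to 0.880%, 0.806%, 0.393%, 0.411%, 0.767% and 0.467% of TPM. Of the 47, 35 ranged at least 2-fold, where 15.2% of detected genes did. The ratio of summed 40S to summed 60S TPM was 0.639, 0.640, 0.558, 0.569, 0.644 and 0.553, so it was also higher in the libraries with more of both. Small-subunit proteins of the mitochondrial ribosome, a separate set of 29 nuclear genes, ranged 1.22-fold in sum, and 0 of the 29 ranged 2-fold. The 14 genes of the assembly factor list, among them Bysl, Nob1, Ltv1 and the kinases Riok1 to Riok3, summed to 0.00757% to 0.0101% of TPM. This list was chosen by name, and not every gene on it need be specific to the 40S subunit. Of the 14, 0 ranged 2-fold, and at the 15.2% of detected genes few of 14 would. Of these factors Ltv1, which leaves the late pre-40S particle when it is phosphorylated, had the widest range, 1.79-fold around a median of 3.90 TPM.

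Of 9 genes for proteins that bind or modify the 40S subunit and for paralogs, 0 ranged 2-fold. At the 15.2% of detected genes few of 9 would, so this count does not set the list apart. Rack1, a scaffold on the head of the subunit, came closest at 1.93, with 61.14, 57.43, 31.76, 37.21, 52.54 and 42.22 TPM, high in the same mice as the members. The paralog Rps27l ranged 1.30-fold around 7.63 TPM, and the S6 kinase Rps6kb1 ranged 1.34-fold around 8.45 TPM.

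**Figure D5:**
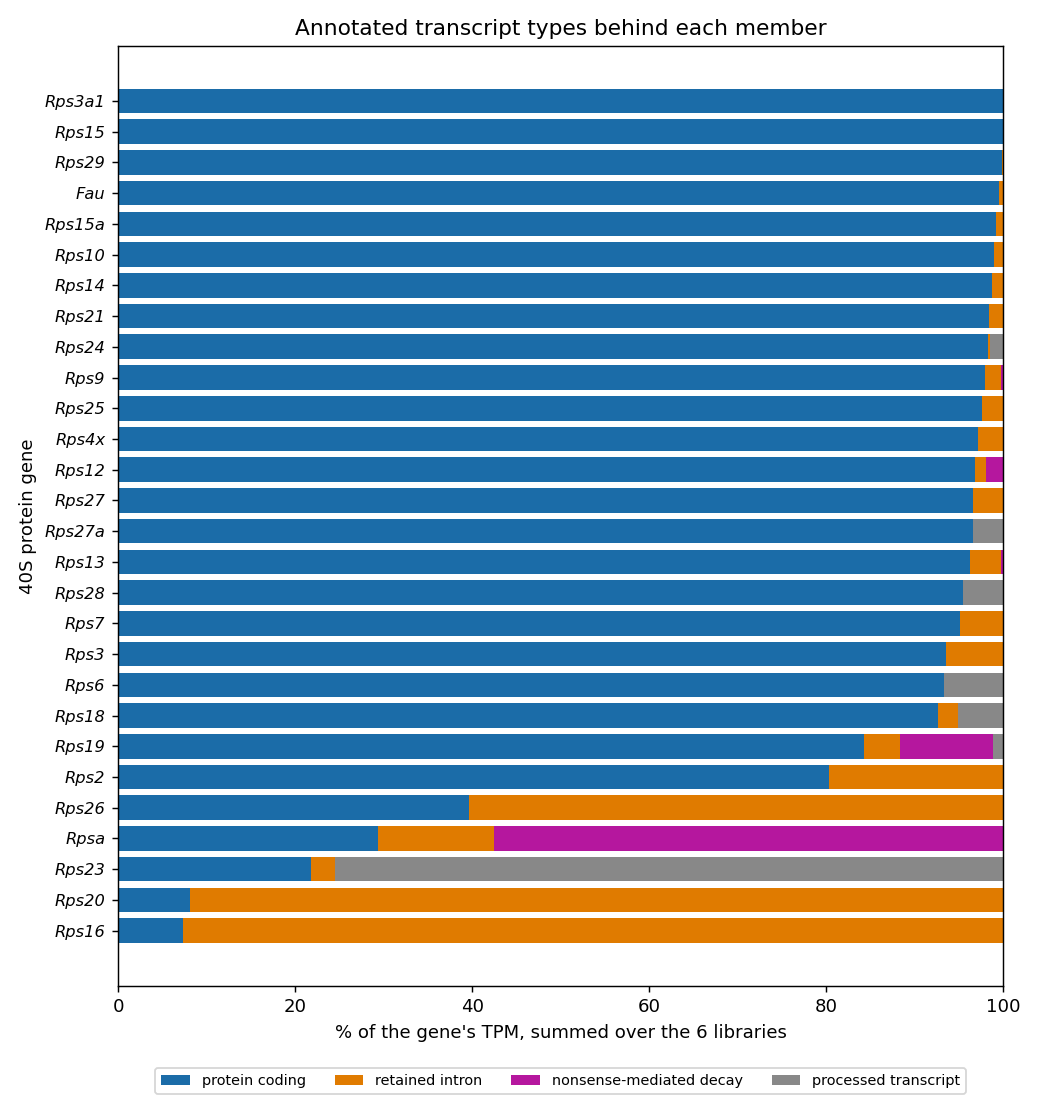
Share of each gene's TPM, summed over the 6 libraries, by the type GENCODE gives to the transcript. For 5 members, Rps16, Rps20, Rps23, Rpsa and Rps26, under 50% of the bar is protein coding.

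Protein-coding transcripts held a median of 86.3% of the 40S TPM, retained-intron transcripts 8.46%, processed transcripts 2.95% and nonsense-mediated decay transcripts 2.35%. For 5 members the leading isoform is not annotated as coding. The retained-intron transcript Rps20-201 held 83.5% to 88.2% of the TPM of Rps20, and the coding Rps20-203 had 6.56, 6.31, 3.19, 2.95, 6.50 and 3.40 TPM. In Rps16 the coding isoform held 6.43% to 8.52%, in Rps23 18.9% to 23.7%, in Rpsa 26.0% to 31.5% and in Rps26 33.8% to 49.3%. These shares are estimates by RSEM from reads that the isoforms largely share.

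The range of the coding transcripts alone resembled that of the whole gene. Summed over members they ranged 2.57-fold, and retained-intron transcripts ranged 2.41-fold. The largest parts of the retained-intron sum came from Rps16, Rps20 and Rps26 (172.5, 83.07 and 64.2 TPM in mouse 678). In these genes such transcripts held a median of 92.4%, 91.7% and 62.5% of TPM. Whether the reads behind them come from RNA that keeps an intron was not tested. In the 18 members with at least 10 counts of both kinds in every library, the median ratio was 2.40 for coding and 2.75 for retained-intron transcripts. The coding ratio was the larger in 5 members. The widest retained-intron ratios rested on few counts. Rps7 (8.72), Rps19 (7.41), Rps21 (5.91) and Rps10 (5.12) had lowest retained-intron counts of 21, 12, 11 and 10. Their lowest coding counts were 1212, 674, 984 and 961. Low counts widen such a ratio by sampling, and the part of sampling in this difference was not tested.

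Leading isoforms held under 50% of the TPM in at least 1 library for 5 members, Rps7, Rps10, Rps15a, Rps19 and Fau. Rps19 was the most divided, since Rps19-202 held 27.7% to 39.8%, and its nonsense-mediated decay isoform Rps19-205 held 15.5% in mouse 678 and 5.05% in mouse 703. Rps15a-201 held 43.1%, 50.6%, 65.9%, 40.8%, 57.6% and 46.8% of the TPM of Rps15a, with its highest share in the library where the gene was lowest. Rps7-203 held 44.4% to 60.6%, Rps10-201 49.1% to 57.8% and Fau-202 47.9% to 58.9%. Rps24, a gene known for alternative splicing of its last exons, was led by Rps24-202 at 86.2%, 83.1%, 81.8%, 86.6%, 82.9% and 75.9%.

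Ribosomal protein genes have many processed pseudogenes, and reads from the shared parts cannot be assigned with certainty. In 19 of 28 members more than 50% of the 50-base windows of the leading isoform also occur in a transcript of another gene. The share ran from 2.96% in Rps3 to 98.6% in Rps27, which shares its sequence with Rps27rt. The genes holding these windows summed to 0.115% (Rps21) to 14.2% (Rps23) of the TPM of the member. For Rps23, the member of widest range, most of that came from the pseudogene Rps23-ps1, with a median of 14.92 TPM. The log2 range had a Spearman rho of -0.27 with the shared percent (Pearson -0.20), as a description over the 28 genes.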

How the data were processed

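RNA-seq of rRNA-depleted RNA was read from 6 files, 1 for each mouse. Adapters were removed by the authors with cutadapt, STAR placed the reads on mm10 and RSEM estimated transcript levels, all in versions the sources used here leave unstated. The labels name TRIzol and a directional NEB kit, and the methods name RNEasy columns. For each transcript the authors deposited an RSEM expected count, without normalization, and a TPM, whose sum runs over all transcripts of the file. Of 142351 transcripts, 99.36% matched GENCODE M21 by identifier without version. The 910 others held 0.246% to 0.272% of counts. Both values were summed per gene. Library totals were 34689262 to 44463362 expected counts, and 12 value columns were used, matched to the tissue alone, and 18 were not. No pair of libraries agreed within sampling noise (chi-square per transcript 15.5 to 39.3 over 15 pairs).

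The members and lists were chosen with earlier results of these data known. All members are named with their median and either their range or their value in each library. Values in each library are given for the 3 members of highest and of lowest median TPM, the 3 of largest and of smallest ratio, the 3 of largest centred SD, and Rps6, Rps20, Rps25, Rps27a and Fau. Starts shown are the longest TOP starts of leading isoforms, those of Rps6, Rps20 and Rps25, and that of the most abundant member. Alternatives used TMM from edgeR 4.0.16, size factors from DESeq2 1.42.0 (R 4.3.3, expected counts rounded), coding transcripts alone, and each library left out in turn. The calculation of ranges was tested on simulated data.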

Additional observations from a re-analysis of the deposited data

Results flagged for a closer look

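Of 57 sets of 6 values examined with Dixon's ratio (the levels of each member, the share of the leading isoform and the summed levels), 2 held a library far from the others, by the 95% limit for 6 values. Chance flags about 1 set in 20 only where the sets are independent and each comes from a single normal distribution. In the levels, of each member and summed, the libraries lie in separate clusters, so a single library can hardly be flagged there. The share of Rps3a1, which has 1 isoform, is constant and cannot be flagged. The number of flagged sets is therefore not compared with chance. The leading isoform Rps12-203 held 75.9% of the TPM of Rps12 in mouse 688 and 83.3% to 87.6% in the other libraries. Rps16-203 held 55.2% of the TPM of Rps16 in mouse 678 and 58.9% to 60.1% in the others.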

How the results depend on the processing

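The 2.56-fold range of the 40S share ran from 2.43 to 2.62 over the other units and coding transcripts alone, and from 2.35 to 2.56 with each library left out. The 24 members with a range of at least 2-fold became 23 to 25 over those settings, 23 with a pseudocount of 1, and 21 to 24 with each library left out. The centred SD of 0.152 ran from 0.147 to 0.163 over other settings, and from 0.141 to 0.159 with each library left out. The median ratio of 40S to 60S, 0.604 in TPM, was 0.534 in summed expected counts, which are not corrected for length. The 4 members with a TOP start at the leading isoform became 14 over any isoform, 9 within 5 bases and 2 with at least 6 pyrimidines, and, at RefSeq starts, a choice made after seeing the data, 7 of 24. With 75-base windows, 16 members in place of 19 shared most of theirs. Which library was highest or lowest for a member depended on the unit. Counts over all detected genes depend on the unit more than those of members do: 15.2% of genes ranged 2-fold in TPM and 10.7% in TMM-scaled counts. No paired analysis was possible because the mouse numbers match no replicate number in the labels and no test was run.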

Other observations

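The 6 libraries fall into separate clusters on the summed level of the 40S mRNAs, at 0.220%, 0.234% and 0.259% of TPM (mice 688, 698 and 703) and at 0.494%, 0.516% and 0.562% (mice 700, 687 and 678). No source used here gives a group for these libraries, and the gap was not tested.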
